A study of Homo sapiens with 6 samples.

Results

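Nuclear hormone receptors are transcription factors, most of which bind a small lipid-soluble ligand and change gene activity directly. The family described here comprises 46 named human genes, chosen by gene symbol, and 23 of them are among the 11731 genes tested on the arrays. Of these 46, 40 had at least 1 probe annotated to them, 86 probes in all. The remaining 6, HNF4A, NR0B1, NR1H2, NR1H4, NR1I2 and NR2F2, had no named probe in the annotation used here.

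Expression was measured on 6 single-colour Illumina bead arrays. The cells are labelled as SKOV3, a widely used line from a human ovarian carcinoma. Of these, 3 arrays carry RNA of the parental subline SKOV3-ip1 (ip1 below) and 3 carry RNA of SKOV3-OM3 (OM3 below), a subline labelled as metastatic. No treatment, time point or further genetic change is given in the labels. Each group is a single subline, and separate cultures are not mentioned for its arrays. The p-values below therefore rest on the spread between 3 arrays a group, and that spread could be technical.

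The labelled origin of the cells was checked first. No ip1 array was above background for CDKN2A, a cell cycle inhibitor gene, or for UQCRH, a respiratory chain gene. In OM3 these genes were higher by at least 11.2-fold and at least 227-fold. ERBB2, also 1 of the ovarian cancer cell markers below, was at 12.8 in ip1 and 9.26 in OM3 (normalized log2 intensity). It was 11.5-fold lower in OM3 (limma adjusted p = 1.12e-07). Whether OM3 cells descend from ip1 cells cannot be told from these arrays. Of 10 markers of ovarian cancer cells, 8 were lower in OM3 and 1 was higher. KRT19 and the lineage factor genes PAX8 and SOX17 were below background on the 3 OM3 arrays and so passed the filter only through ip1. Of 10 fibroblast markers, COL1A1, FAP and PDGFRB failed the filter. The other 7 were higher in OM3, but 5 of them (COL1A2, COL3A1, DCN, LUM and THY1) had no ip1 array above background and so passed the filter only through OM3. The summed signal of the 7 was 64.7 to 105 in ip1 and 7976 to 9099 in OM3. Of 5 mesothelial markers, 4 were lower in OM3, with MSLN at least 29.3-fold lower. MSLN and LRRN4 had no OM3 array above background and so passed the filter only through ip1. The summed signal of the 5 was 2510 to 2828 in ip1 and 66.5 to 160 in OM3. The part of cell origin or of other cell types in the receptor differences below was not tested. Of 3 leukocyte markers tested, CD68 was 4.01-fold lower (limma adjusted p = 2.53e-05), while CD14 (0.284) and LYZ (0.288) did not pass. The summed signal of the 3 was 1586 to 2376 in ip1 and 486 to 647 in OM3, and PTPRC and CD3E failed the filter. Of 2 adipocyte markers tested, PLIN1 was lower and not above background in OM3, so it passed the filter only through ip1. LEP did not pass (limma adjusted p = 0.439). ADIPOQ, CIDEC, FABP4 and LPL failed the filter. Neither of 2 endothelial markers tested passed, and CDH5, CLDN5, TEK and VWF failed the filter. In bulk RNA, fewer cells of a type and less RNA per cell cannot be told apart.

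Most nuclear receptors have a zinc finger domain that reads short DNA motifs, in many of them the half-site AGGTCA, and a domain that holds the ligand. Steroid receptors wait in complex with HSP90 chaperones until hormone arrives. Many of the others, such as the receptors for fatty acids, retinoic acid, thyroid hormone, vitamin D and oxysterols, bind DNA paired with a retinoid X receptor (RXR). Orphan receptors have no established natural hormone, and several act as repressors.

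The stretches upstream of 3 genes are shown because NR2F1 had the largest increase among the receptors and PPARG and its pairing partner RXRA the largest decreases. Each is the 250 bases before the outermost RefSeq start of the gene (GRCh38.p14, plus strand): chr5:93582972-93583221 for NR2F1, chr3:12287118-12287367 for PPARG and chr9:134326205-134326454 for RXRA. Capitals mark AGGTCA or the GC box GGGCGG on either strand, and GC boxes may overlap each other.
NR2F1: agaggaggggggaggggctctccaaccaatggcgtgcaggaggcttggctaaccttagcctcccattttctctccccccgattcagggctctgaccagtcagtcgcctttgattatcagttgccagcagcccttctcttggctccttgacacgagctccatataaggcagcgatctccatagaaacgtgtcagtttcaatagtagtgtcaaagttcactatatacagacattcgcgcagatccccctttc
PPARG: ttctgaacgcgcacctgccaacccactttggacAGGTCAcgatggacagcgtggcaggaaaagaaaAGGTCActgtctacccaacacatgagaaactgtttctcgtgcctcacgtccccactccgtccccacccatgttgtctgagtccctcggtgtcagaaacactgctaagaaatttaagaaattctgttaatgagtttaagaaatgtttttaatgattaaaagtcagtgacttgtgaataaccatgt
RXRA: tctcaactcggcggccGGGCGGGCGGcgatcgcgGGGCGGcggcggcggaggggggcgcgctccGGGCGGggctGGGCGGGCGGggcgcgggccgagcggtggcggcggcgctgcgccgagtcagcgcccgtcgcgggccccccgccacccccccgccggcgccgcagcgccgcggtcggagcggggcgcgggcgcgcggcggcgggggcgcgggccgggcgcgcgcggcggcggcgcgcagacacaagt

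The PPARG stretch holds 2 copies of AGGTCA, the RXRA stretch 6 GC boxes, and the NR2F1 stretch neither motif. Their GC contents were 44.8% for PPARG, 52.4% for NR2F1 and 89.2% for RXRA, against a median of 57.6% over 27305 genes. AGGTCA was found upstream of 12.2% of those genes and in 3 of the 20 tested receptors with an entry (NR1H3, PPARG and RARA). The GC box was found upstream of 42.2% of the genes and in 10 of the 20 receptors. HNF4G, NR2F6 and NR4A2 had no entry. These matches describe letters in 1 window, and PPARG and NR2F1 have further annotated starts.

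Of the 40 receptors with a probe, 23 had a probe that rose above background on 3 or more of the 6 arrays, and these were tested. A gene is represented by its brightest such probe, and values below are normalized log2 intensities of that probe. With limma and an adjusted p under 0.05 over all genes, 7 receptors were higher and 8 lower in OM3, and 8 did not pass. These 15 of 23 stand beside 57.1% of all genes called, with 31.2% of all genes higher and 25.9% lower, so the share of receptors called was near that of genes at large. The median log2 fold change was -0.21 over the 23 receptors and 0.09 over all genes. At a size of at least 2-fold, 5 receptors were higher and 5 lower, where 12.8% of all genes were higher and 13.8% lower, 26.6% together. The 3 OM3 values lay all above or all below the 3 ip1 values in 16 of the 23 receptors and in 64.2% of all genes. In 3 of the 23 receptors no array of 1 group was above background, so they passed the filter only through the other group.

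**Figure D1:**
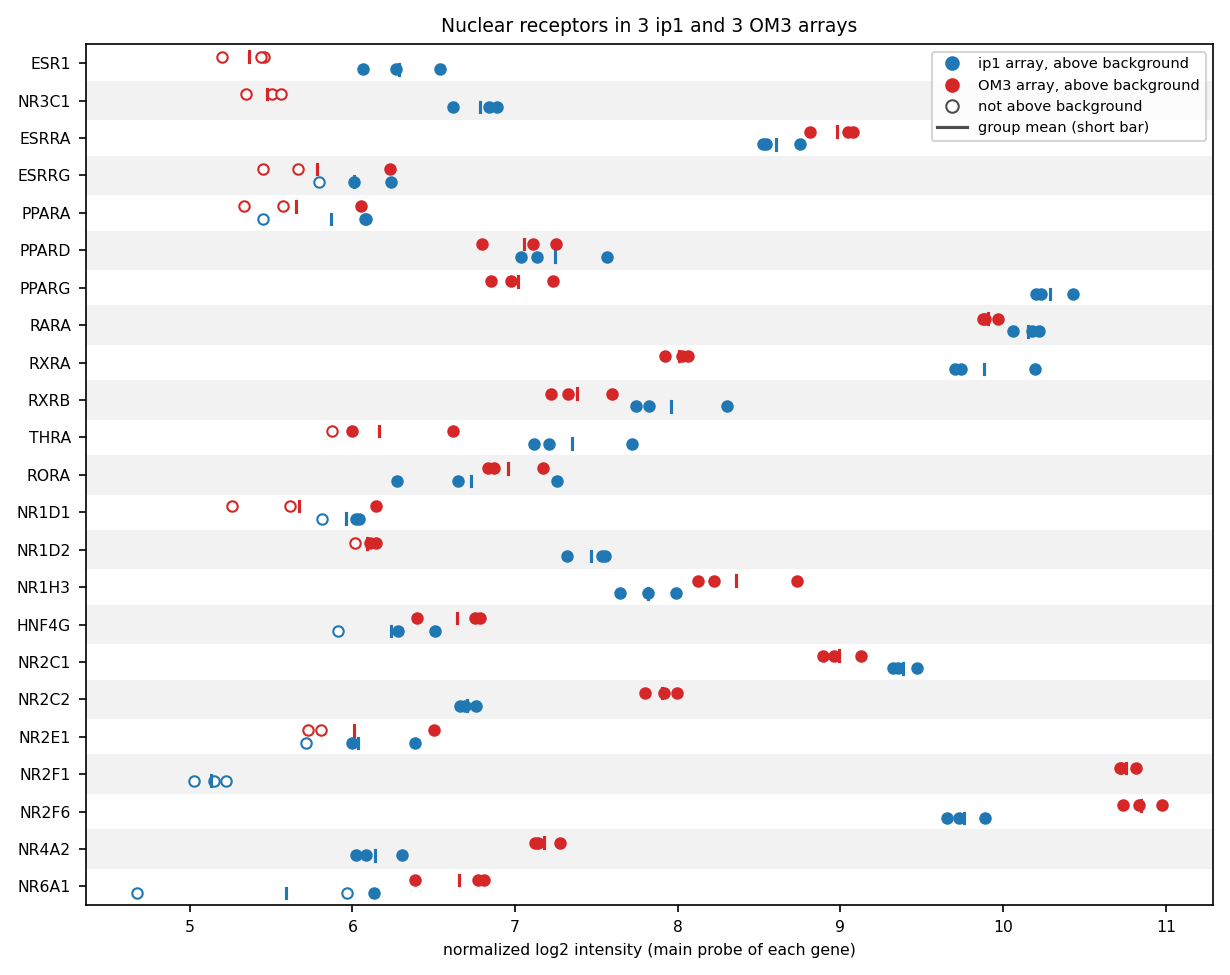
Normalized log2 intensity (horizontal axis) of the main probe of each of the 23 tested receptors on the 3 ip1 and 3 OM3 arrays; open circles are arrays not above background and short bars are group means. NR2F1 lies between 5.02 and 5.23 on the ip1 arrays and between 10.72 and 10.81 on the OM3 arrays, and PPARG and RXRA show the widest gaps in the other direction.

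The steroid receptors were dim in both sublines. Of the 5, NR3C1 and ESR1 could be tested, and these 2 were lower in OM3. Each passed the filter only through the ip1 arrays, and its direction followed from that. The main probe of NR3C1, the glucocorticoid receptor, read 6.89, 6.84 and 6.62 on the ip1 arrays and 5.35, 5.51 and 5.56 on the OM3 arrays. The groups did not overlap, and since no OM3 array was above background the change is a bound, at least 1.72-fold lower (limma adjusted p = 6.01e-05). For such bounds, each dim array was given its own lowest detected signal, or the probe's signal where that was greater, before the group means were compared. A bound itself was not tested, and the p-value beside it belongs to the fit of the normalized values. ESR1, the main oestrogen receptor, was at 6.29 ± 0.24 (SD, n = 3) in ip1, below background on the 3 OM3 arrays and at least 1.23-fold lower (limma adjusted p = 0.00116). ESR1 overlaps SYNE1 in RefSeq. ESR2, the second oestrogen receptor, the progesterone receptor PGR and the mineralocorticoid receptor NR3C2 had no probe past the filter, and none of their probes was above background on more than 1 of the 6 arrays. The other 2 probes of NR3C1 also failed the filter.

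The genes around the steroid receptors were mixed. The shares called below stand beside 57.1% of all genes called, with 31.2% higher and 25.9% lower. Of 11 tested HSP90 chaperones and cochaperones, 7 were higher and 1 lower (72.7% called), with a median log2 fold change of 0.59. FKBP5, a cochaperone that damps glucocorticoid receptor signalling, rose by 2.23 ± 0.22 (SE), and FKBP4, which aids steroid receptor activity, rose by 1.52 ± 0.16. Of 9 tested glucocorticoid receptor targets, 3 were higher and 5 lower (88.9% called). FKBP5 belongs to this list as well, while MT2A, a metallothionein gene similar in sequence to its family members (log2 fold change -5.77 ± 0.20), the kinase gene SGK1 (-3.83 ± 0.25, above background on 1 of 3 OM3 arrays) and the phosphatase gene DUSP1 (-3.57 ± 0.17) were lower. Of 9 tested oestrogen receptor targets, 2 were higher and 3 lower (55.6% called, near the share of all genes). GREB1 was at 0.57 ± 0.13 and the corepressor NRIP1 at -0.99 ± 0.19. Of 11 tested genes of steroid hormone metabolism, 3 were higher and 5 lower (72.7% called). The count lower was 3 without array 1 or 3 of ip1 or array 1 or 2 of OM3. It was also 3 with median centring, without the filter and with probes above background on all 6 arrays. HSD17B1, which makes the potent oestrogen oestradiol, rose by 2.81 ± 0.19, while AKR1C3, which makes testosterone, was at -5.55 ± 0.17 and AKR1C2, which inactivates androgens, at -2.47 ± 0.24. For both, only 1 of the 3 OM3 arrays exceeded background. The genes of this family are similar in sequence.

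Among the 3 fatty acid sensors, PPARG fell and the other two did not pass. PPARG, the master regulator of fat cell formation, read 10.43, 10.24 and 10.20 in ip1 and 6.85, 6.98 and 7.23 in OM3. Every ip1 array lay above every OM3 array, and the log2 fold change was -3.27 ± 0.15 (SE, n = 3 + 3, limma adjusted p = 3.41e-07). A second PPARG probe was below background on the 3 OM3 arrays and at least 7.04-fold lower, and the other 2 PPARG probes did not pass the filter. PPARD, a sensor present in most tissues, read 7.04, 7.57 and 7.14 in ip1 and 7.11, 7.25 and 6.79 in OM3. The groups overlapped (log2 fold change -0.19 ± 0.19, limma adjusted p = 0.400). Its second tested probe had a difference near 0 with the opposite sign (adjusted p over all probes = 0.997). PPARA, which drives fatty acid burning in liver, was near background, at 5.87 ± 0.36 in ip1 and 5.65 ± 0.37 in OM3 (SD, limma adjusted p = 0.464, above background on 2 of 3 ip1 and 1 of 3 OM3 arrays).

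Of 13 tested PPAR targets, 8 were higher and 3 lower in OM3 (84.6% called, against 57.1% of all genes), with a median log2 fold change of 0.46. The count higher was 4 with cyclic loess, without the filter or without array 1 of OM3, and 5 without array 3 of ip1 or array 2 of OM3. No ip1 array was above background for the fatty acid receptor gene CD36, which was at least 39.3-fold higher in OM3, and the lipid droplet coat gene PLIN2 rose by 4.46 ± 0.18. The mitochondrial acyl-CoA dehydrogenase gene ACADVL was at -1.67 ± 0.13, and PDK4, which restrains pyruvate burning, at -1.08 ± 0.33 (above background on 1 of 3 OM3 arrays). The PDK4 call was lost without array 2 or 3 of ip1 or array 1 or 3 of OM3 (limma adjusted p from 0.0672 to 0.0734) and without the filter (0.0523). FABP4, a fat cell target of PPARG, did not pass the filter.

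The RXR genes that could be tested were lower in OM3. RXRA, the most widely used pairing partner, read 9.74, 9.71 and 10.19 in ip1 and 8.03, 8.06 and 7.92 in OM3. The groups stood well apart, with a log2 fold change of -1.88 ± 0.16 (SE, n = 3 + 3, limma adjusted p = 1.79e-05). RXRB was at 7.96 ± 0.30 in ip1 and 7.38 ± 0.19 in OM3 (SD), a log2 fold change of -0.58 ± 0.18 (limma adjusted p = 0.0254). That call was lost without array 2 of ip1 (adjusted p = 0.0746), without array 1 of OM3 (0.0834), without array 3 of OM3 (0.0680) and without the filter (0.0657). None of the 3 RXRG probes passed the filter.

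Among the retinoic acid receptors, RARA could be tested. It was at 10.15 ± 0.08 in ip1 and 9.91 ± 0.05 in OM3 (SD). Its 3 OM3 values all lay below its 3 ip1 values, but the log2 fold change of -0.24 ± 0.12 did not pass (limma adjusted p = 0.122), and a second probe at -0.37 ± 0.17 did not either. None of the 5 RARB probes and not the RARG probe passed the filter. The genes that make, bind and clear retinoic acid, and its targets, spread widely, with log2 fold changes from -7.06 to 5.05. Of 11 tested, 4 were higher and 5 lower (81.8% called, against 57.1% of all genes). With probes above background on all 6 arrays these counts were 2 higher and 1 lower. CRABP2, which carries retinoic acid to the nucleus, rose by 5.05 ± 0.13. TGM2, a transglutaminase gene induced by retinoic acid, was at -7.06 ± 0.21 (above background on 1 of 3 OM3 arrays) and PLAAT4, a retinoid-induced growth suppressor gene, at -6.07 ± 0.24 (2 of 3). Among the dehydrogenases that make retinoic acid, ALDH1A3 was at -4.78 ± 0.45 (above background on 2 of 3 OM3 arrays), whereas ALDH1A1, with no ip1 array above background, was at least 13.7-fold higher. ALDH1A2 was higher too, at 0.75 ± 0.21 (limma adjusted p = 0.0150, above background on 2 of 3 ip1 arrays). RDH10, which supplies their substrate, rose by 4.23 ± 0.16, and CYP26B1, which degrades retinoic acid, was at -1.46 ± 0.14. CYP26A1 and DHRS3 did not pass (limma adjusted p = 0.315 and 0.787). ALDH1A1, ALDH1A2, RDH10, CYP26B1, CYP26A1 and DHRS3 were chosen after their values were seen.

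**Figure D2:**
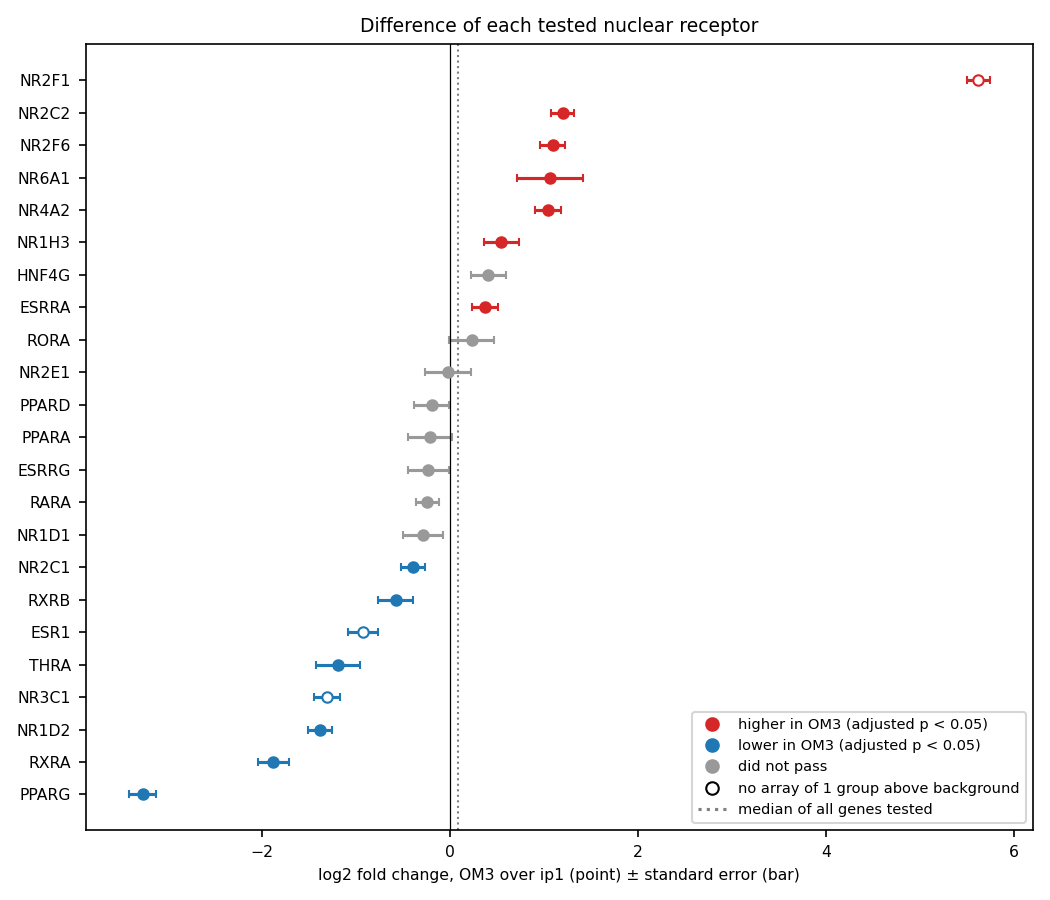
Log2 fold change of OM3 over ip1 (horizontal axis, point) with its standard error (bar) for the 23 tested receptors; colours give the call at an adjusted p under 0.05, open points rest on background signal in 1 group, and the dotted line is the median of all genes. NR2F1 and PPARG lie at the ends, and 8 receptors did not pass.

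THRA, a thyroid hormone receptor, was lower in OM3. It read 7.72, 7.12 and 7.21 in ip1 and 5.87, 6.62 and 6.00 in OM3, where 2 of the 3 arrays were above background. The groups did not overlap, and the log2 fold change was -1.19 ± 0.23 (SE, n = 3 + 3, limma adjusted p = 0.00246). A second THRA probe gave -1.18 ± 0.28 (adjusted p over all probes = 0.00689). THRB and the vitamin D receptor VDR had no probe past the filter. One VDR probe was above background on 2 of the 3 OM3 arrays and on none of the ip1 arrays. Of 7 tested vitamin D targets and enzymes, 1 was higher and 3 lower (57.1% called, the same share as of all genes). The gene that was higher, the vitamin D activating enzyme gene CYP27B1 (0.58 ± 0.21, limma adjusted p = 0.0387), lost its call without array 2 or 3 of ip1 or array 1 or 2 of OM3 and under several processing alternatives (adjusted p over all alternatives from 0.0139 to 0.126). CYP24A1, which degrades active vitamin D and is a classic VDR target, was at 9.50 in ip1, below background on the 3 OM3 arrays and at least 11.4-fold lower. The bone matrix protein gene SPP1 was at -2.13 ± 0.20.

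Of the receptors of the circadian clock, NR1D2 was lower in OM3. NR1D2, or REV-ERB beta, represses the clock activator BMAL1, and read 7.55, 7.32 and 7.53 in ip1 and 6.11, 6.01 and 6.14 in OM3. The groups did not overlap (log2 fold change -1.38 ± 0.13, SE, n = 3 + 3, limma adjusted p = 3.17e-05), and 2 of 3 OM3 arrays were above background. NR1D2 overlaps NKIRAS1 in RefSeq. NR1D1, or REV-ERB alpha, overlaps THRA in RefSeq and was near background in both groups, at 5.96 ± 0.12 and 5.67 ± 0.44 (SD, limma adjusted p = 0.292). Without array 1 of OM3 it would have been called lower (adjusted p = 0.0395, range over the alternatives 0.0395 to 0.755). RORA, an activator of BMAL1, was at 6.73 ± 0.50 and 6.96 ± 0.18 with overlapping groups (limma adjusted p = 0.438), and 1 of its 8 probes passed the filter. RORB did not pass the filter. Of 13 tested clock partners, 2 were higher and 5 lower (53.8% called, near the 57.1% of all genes). The count higher was 1 without array 3 of OM3 or with probes averaged per gene, and the count lower was 2 with probes above background on all 6 arrays. The output factor gene DBP rose by 1.61 ± 0.19, while the repressor BHLHE40 was at -1.69 ± 0.15, CIART at -1.78 ± 0.31 and NPAS2, a partner of BMAL1, at -1.12 ± 0.27 (the last pair above background on 1 of 3 OM3 arrays each). BMAL1 itself was lower too, at -1.12 ± 0.19 (above background on 2 of 3 OM3 arrays).

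NR1H3, the oxysterol sensor LXR alpha, was modestly higher in OM3, at 7.82 ± 0.17 in ip1 and 8.36 ± 0.33 in OM3 (SD). Its log2 fold change of 0.55 ± 0.19 passed (limma adjusted p = 0.0340), but not without array 1 of ip1 (0.0991), array 3 of ip1 (0.0750) or array 2 of OM3 (0.0975), with cyclic loess (0.130) or without the filter (0.0826). NR1H3 overlaps ACP2 in RefSeq. Of 9 tested LXR and FXR targets, 6 were higher and 2 lower (1 lower with probes averaged per gene), with a median log2 fold change of 0.74. The share called was 88.9%, against 57.1% of all genes. The desaturase gene SCD rose by 3.16 ± 0.14, the lipid transport gene APOE by 2.24 ± 0.14 (above background on 2 of 3 ip1 arrays) and SREBF1, a regulator of fat synthesis, by 1.42 ± 0.17. The cholesterol exporter gene ABCA1 went the other way, at -3.43 ± 0.14. The xenobiotic sensor NR1I3 and the bile acid repressor NR0B2 did not pass the filter.

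Among the oestrogen-related receptors, ESRRA, a regulator of mitochondrial genes, was at 8.61 ± 0.13 in ip1 and 8.98 ± 0.14 in OM3 (SD). Its log2 fold change of 0.37 ± 0.14 lay just past the threshold (limma adjusted p = 0.0461) and was lost without array 1 (0.103) or 3 (0.126) of ip1 and without array 1 (0.128) or 2 (0.123) of OM3, with cyclic loess (0.260) and without the filter (0.117). ESRRA overlaps TRMT112 in RefSeq. ESRRG did not pass (limma adjusted p = 0.394), and ESRRB failed the filter. Of 8 tested ERR targets, a list that includes ESRRA itself, 6 were higher and 0 lower by limma (75.0% called, against 57.1% of all genes). At an unadjusted p under 0.05, 0 were lower. With cyclic loess, in the authors' value table or with a trended, robust prior, 1 was lower. The count higher was 3 with cyclic loess, without array 3 of ip1 or without array 2 of OM3. ACADM, the medium-chain acyl-CoA dehydrogenase gene, rose by 2.31 ± 0.16 and the cytochrome c gene CYCS by 1.14 ± 0.14.

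The orphan receptors held the largest increase. NR2F1, or COUP-TFI, a regulator of development and cell fate, read 5.15, 5.23 and 5.02 on the ip1 arrays and 10.72, 10.81 and 10.72 on the OM3 arrays. As deposited, its signals were 121, 115 and 111 in ip1 and 1912, 2025 and 1907 in OM3. No ip1 array was above background, so the difference is a bound, at least 27.8-fold higher in OM3. The fit of its normalized values, not the bound, gave a limma adjusted p of 1.09e-08. NR2F1 passed the filter only through the OM3 arrays, and its direction followed from that. With 31.2% of all genes higher in OM3, a shared direction over 2 groups cannot link NR2F1 to the fibroblast markers given above. The part of other cell types in its difference was not tested.

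Its relative NR2F6, which restrains immune genes in T cells, was higher by a smaller amount. It read 9.73, 9.89 and 9.65 in ip1 and 10.74, 10.98 and 10.84 in OM3. The groups did not overlap (log2 fold change 1.09 ± 0.13, SE, n = 3 + 3, limma adjusted p = 0.000160). The testicular receptors, a pair that bind DNA together, went opposite ways. NR2C2, or TR4, read 6.76, 6.66 and 6.69 in ip1 and 8.00, 7.92 and 7.80 in OM3, and rose by 1.20 ± 0.12 (limma adjusted p = 5.76e-05). NR2C1, or TR2, was lower, at 9.38 ± 0.08 in ip1 and 8.99 ± 0.12 in OM3 (SD, log2 fold change -0.39 ± 0.13, limma adjusted p = 0.0294). The other 3 tested NR2C1 probes were lower too, at -0.47, -0.80 and -0.76. The call of the main NR2C1 probe was lost without array 3 of ip1 (0.0974), array 1 of OM3 (0.0846) or array 2 of OM3 (0.0878), with median centring (0.108) or without the filter (0.0851). NR2C2 overlaps MRPS25 in RefSeq. NR2E1, a neural stem cell regulator, was near background and did not differ beyond its spread (limma adjusted p = 0.951), and NR2E3 failed the filter.

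Of the immediate early NR4A receptors, which respond fast to stimuli, NR4A2 was higher. It read 6.02, 6.08 and 6.31 in ip1 and 7.14, 7.12 and 7.28 in OM3. The groups did not overlap (log2 fold change 1.04 ± 0.14, SE, n = 3 + 3, limma adjusted p = 0.000218). A second NR4A2 probe, at 0.49 ± 0.23, did not pass (adjusted p over all probes = 0.111). NR4A1 and NR4A3 had no probe past the filter.

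NR6A1, or germ cell nuclear factor, which silences pluripotency genes in the mouse embryo, read 4.67, 6.13 and 5.97 in ip1 and 6.81, 6.77 and 6.38 in OM3. The OM3 values all lay above those of ip1, of which 1 array was above background and array 1 was far below the others. The log2 fold change was 1.06 ± 0.35 (SE, n = 3 + 3, limma adjusted p = 0.0288), and 0.60 without array 1 of ip1 (adjusted p = 0.0223). The call was lost without array 1 (0.0750) or array 2 (0.0739) of OM3 or without the filter (0.0651). NR6A1 overlaps MIR181A2HG in RefSeq. NR5A1 and NR5A2, regulators of steroid synthesis, failed the filter with no array above background. HNF4G, a relative of the liver factor HNF4A, was at 6.23 ± 0.30 and 6.64 ± 0.22 (SD) and did not pass (limma adjusted p = 0.0919), but passed without array 2 of ip1 (0.0460).

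Coregulators, the proteins through which receptors open or close chromatin, went both ways. Of 24 tested, 8 were higher and 5 lower, with log2 fold changes from -0.99 to 1.28 and a median of 0.20. The number lower was 3 with median centring, without the filter, and without array 2 or 3 of ip1 or array 1 of OM3. The share called, 54.2%, stands beside 57.1% for all genes. TRIM24, a cofactor of retinoid and oestrogen receptors, rose by 1.28 ± 0.14, PPRC1, a relative of PGC-1 alpha, by 1.09 ± 0.15 and the chromatin remodelling ATPase gene SMARCA4 by 0.82 ± 0.14. The acetyltransferase genes CREBBP and EP300 did not pass.

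**Figure D3:**
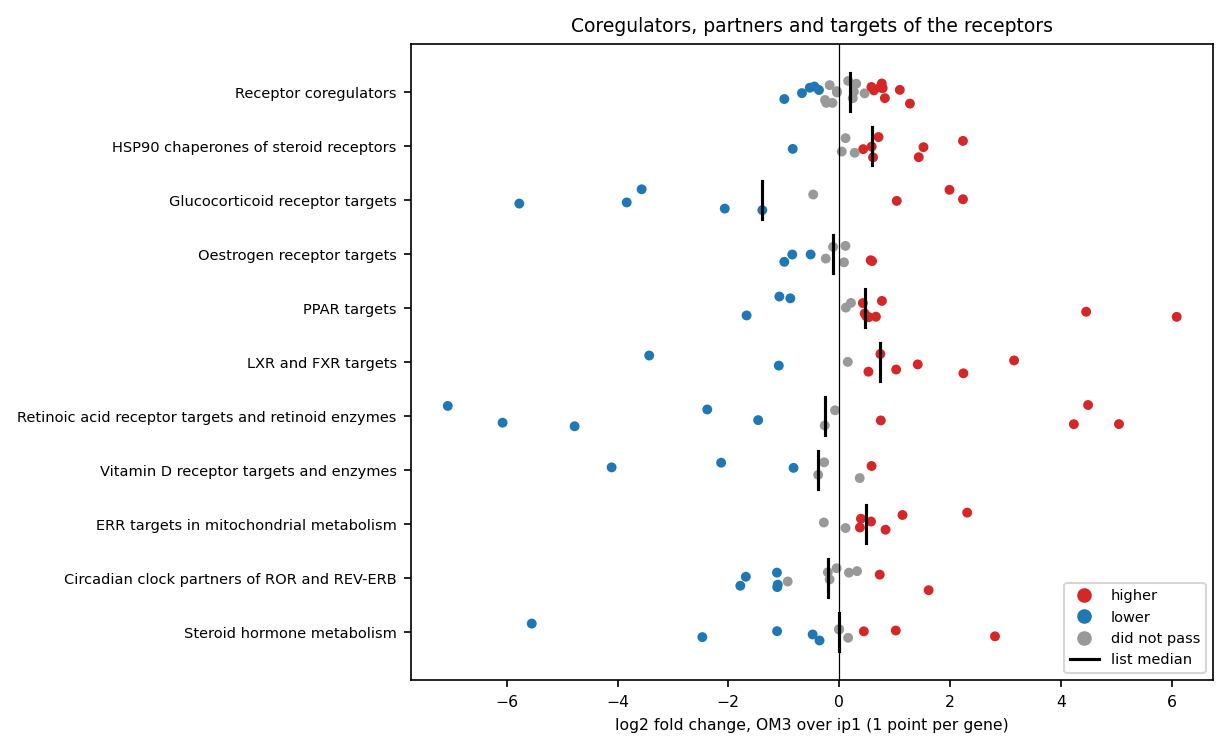
Log2 fold change of OM3 over ip1 (horizontal axis, 1 point per tested gene) for 11 lists of coregulators, chaperones, partners and targets of the receptors; colours give the call and black bars the list medians. The retinoid list spans -7.06 to 5.05, while the coregulators stay between -0.99 and 1.28.

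The receptor differences were compared over 15 alternative settings. Of the 15 called receptors, 10 kept their call under every alternative in which they were tested, namely NR2F1, NR2C2, NR2F6, NR4A2, PPARG, RXRA, NR1D2, THRA, NR3C1 and ESR1. Among these, NR2F1, NR3C1, ESR1, THRA and NR1D2 were not tested with probes above background on all 6 arrays. NR2F1, NR3C1 and ESR1 passed the filter through 1 group only, so keeping their direction adds nothing. ESRRA, NR1H3, RXRB, NR2C1 and NR6A1 lost it under at least 1.

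**Figure D4:**
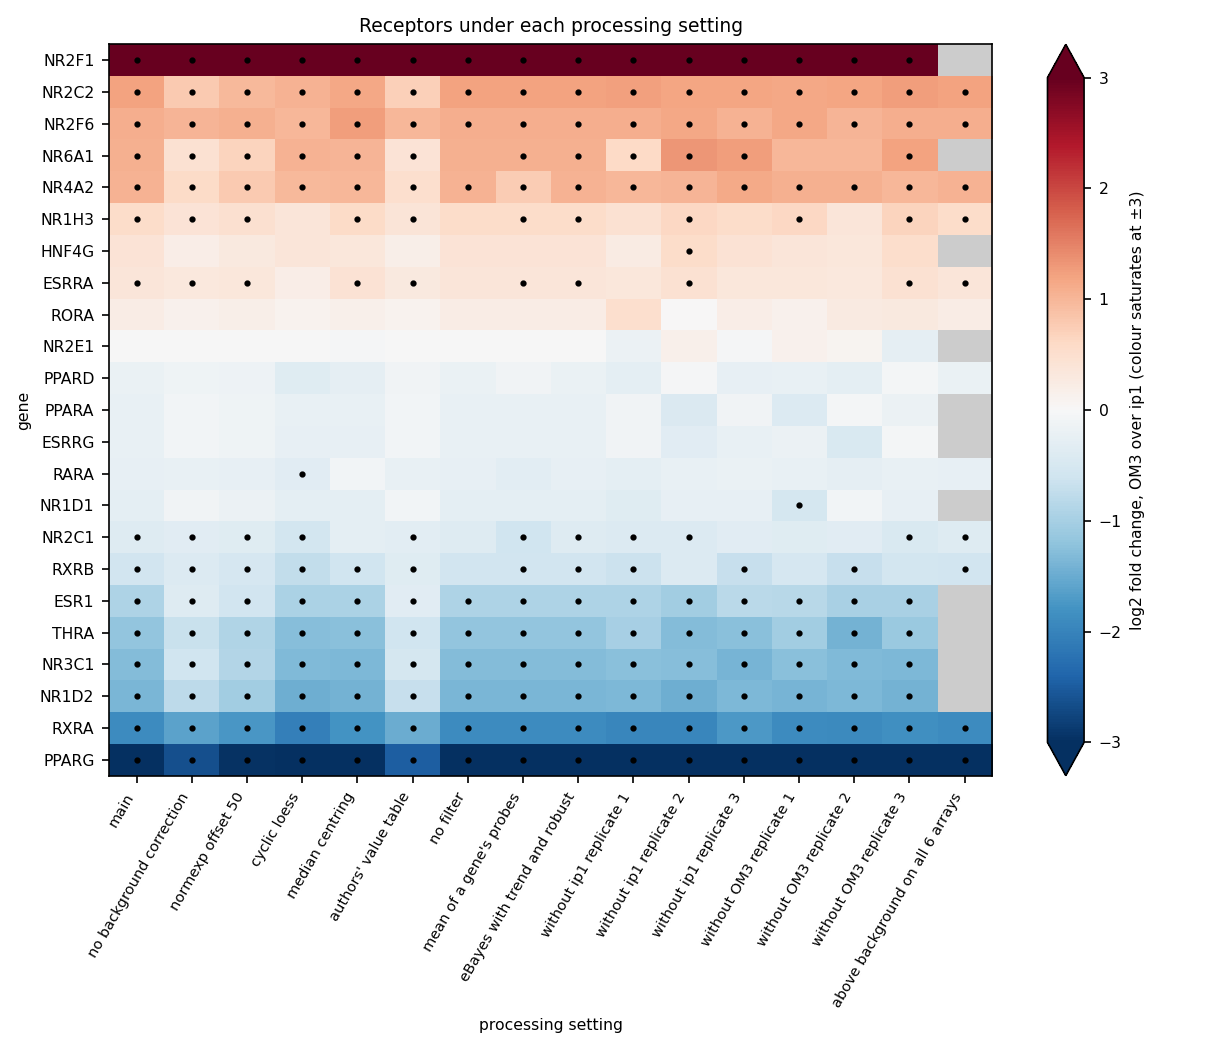
Log2 fold change (colour, red higher in OM3, saturating at 3 in size) of the 23 tested receptors (rows) under the setting reported and 15 alternatives (columns); a dot marks an adjusted p under 0.05 and grey a gene not tested under that setting. Rows from NR2F1 to NR4A2 stay red and those from ESR1 to PPARG stay blue wherever they were tested, though shades vary. ESR1 runs from -1.04 to -0.33 over the alternatives and NR4A2 from 0.51 to 1.13. The dots break up for NR6A1 and for the receptors between.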

How the data were processed

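The authors' deposited table of linear probe intensity values, exported with BeadStudio per the submitters' processing notes (no version given), was used. It has 48799 probes an array and no detection p-values. Its column names give the group only, so arrays are numbered in column order, and 3 columns that match no sample here were not used. Median signals were 131 to 142, and 38.3% to 41.9% of probes were above background. The log2 values the authors deposited as processed data served as an alternative.

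Background was corrected with limma's normexp (offset 16), then arrays were quantile normalized, in limma 3.58.1 and R 4.3.3. Background was taken from each array's signal mode and the spread below it, a probe counted as above it at p under 0.05 (normal, one-sided), and probes doing so on at least 3 arrays were kept. The brightest kept probe stood for a gene. OM3 was compared with ip1 by lmFit and eBayes, two-sided, with Benjamini-Hochberg adjustment over 11731 genes, and a model over all kept probes gave the p-values of second probes. The number of arrays limits the precision (median standard error 0.160 on the log2 scale). The offset shrinks the changes of dim genes. Symbols came from the platform annotation, where 28094 probes had 1 gene, 13 several and 20692 none, updated through RefSeq (39 not matched). The method was tested on simulated data.

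The receptors and the gene lists were chosen with earlier results of these data known. Receptors called at 2-fold or more, or with probes of opposite sign, are given array by array, and from each pathway list up to 4 of the called genes with the largest changes are named. ALDH1A1, ALDH1A2, RDH10, CYP26B1, CYP26A1, DHRS3, FABP4, BMAL1, CREBBP, EP300 and the marker genes were named outside that rule.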

Additional observations from a re-analysis of the deposited data

How the results depend on the processing

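The numbers of receptors called moved by over 1.5 times under a few settings. With no filter on dim probes, 4 were higher in OM3, and with probes above background on all 6 arrays, where 12 receptors are tested, 4 were lower. Leaving out 1 array at a time gave 4 to 8 receptors higher and 7 to 8 lower, with the lowest count higher, 4, without array 2 of OM3. Over all genes these ranges were 3238 to 3549 higher and 2723 to 2979 lower, and for the pathway lists together 38 to 46 higher and 30 to 34 lower. No receptor called under the reported or an alternative setting changed sign. Of 334 comparisons of a tested receptor with an alternative, 308 kept the side of the threshold, 23 lost the call and 3 gained it. For the other genes named by rule, 790 of 813 such comparisons kept the side of the threshold and 23 lost the call. RARA gained it with cyclic loess (adjusted p = 0.0391). Cyclic loess also moved the median log2 fold change of all genes by -0.106, so differences of that size depend on the scaling. For PPARG the log2 fold change ran from -3.46 to -2.47, and for NR2F1, fitted in part on background signal, from 3.65 to 5.70, with the lower sizes without background correction or in the authors' value table; the cause was not tested. Signal close to background limits what can be said of the 17 receptors that failed the filter. No paired analysis was possible because the groups share no replicate number.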
